A study of Mus musculus with 28 samples.

Results

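The S100 calcium-binding proteins were followed through 3 bone marrow cell populations of mice with and without an internal tandem duplication (ITD) in the receptor tyrosine kinase gene Flt3. The 10 members, S100a1, S100a4, S100a6, S100a8, S100a9, S100a10, S100a11, S100a13, S100a16 and S100b, were taken by gene symbol from the 25251 genes of the table, and all 10 were present in it. RNA was sequenced from small sorted pools of endothelial cells (ECs), mesenchymal stromal cells (MSCs) and unfractionated bone marrow mononuclear cells (MNCs), to ask how the Flt3-ITD allele, which drives a myeloproliferative disease, alters the stromal cells around it. ECs were gated as CD45-Ter119-CD31+ and MSCs as CD45-Ter119-CD31-CD166-Sca1+ among cells released from bone by collagenase, with 100 cells in each EC or MSC library and 200 cells in each MNC library. Control mice were Flt3+/+ and mutant mice were knock-in homozygotes that carry the ITD at both copies of the endogenous Flt3 gene (written Flt3-ITD below), all C57 BL6 and 8 to 10 weeks old. Each genotype gave 5 EC, 5 MSC and 4 MNC libraries, which makes 28. The ITD is expressed where Flt3 itself is expressed, and total marrow is a mixture whose make-up can differ between mice, so in these pools fewer cells of a type and less RNA per cell cannot be told apart.

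S100 proteins are small proteins that bind calcium through EF-hand motifs, usually as dimers, and then change shape and bind target proteins. S100A8 and S100A9 pair as calprotectin, the most abundant cytosolic protein of neutrophils, which is released in inflammation and signals through the receptors TLR4 and RAGE. The other members act mainly inside cells. S100A4 binds non-muscle myosin and marks motile fibroblasts, S100A6 binds calcyclin-binding protein, S100A10 and S100A11 form complexes with annexin A2 and annexin A1 at membranes, S100A13 assists the unconventional export of fibroblast growth factor 1, S100A1 is best known from muscle, and S100B is a glial protein that is also made by cartilage cells.

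In the mouse genome (GRCm38, the assembly that mm10 names), 9 of the 10 genes lie on chromosome 3 and S100b lies on chromosome 10. A cluster that spans chr3:90511034-90695721 holds 7 members, among other S100 genes, in the order S100a1, S100a13, S100a16, S100a4, S100a6, S100a8 and S100a9, and S100a11 and S100a10 follow at chr3:93520496-93564645. S100a8 (plus strand) and S100a9 (minus strand) are adjacent among the members, 22595 bases apart. S100a1 (minus strand) and S100a13 (plus strand) run in opposite directions and overlap by 98 bases at their starts. The library kit did not mark the strand, so reads from that overlap cannot be assigned to one of the pair.

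RefSeq promoter windows, here 250 bases before and 30 after the annotated start (GRCm38.p6), were present for 9 of the 10 members, with 2 windows for S100a16. Those of S100a8 (chr3:90668821-90669100, plus strand) and S100a9 (chr3:90695692-90695971, minus strand) are shown because the 2 genes moved together in every high library, and those of S100a4 (chr3:90603520-90603799, plus strand) and S100b (chr10:76253586-76253865, plus strand) because these 2 members marked MSCs. Capitals mark matches, on either strand, to 5 motifs. These were the promoter box TATAAA, the box spelled CCAAT, a core of the C/EBP site spelled TTGCNNAA, a core of the PU.1 site spelled GAGGAA, and the promoter box GGGCGG.
S100a8: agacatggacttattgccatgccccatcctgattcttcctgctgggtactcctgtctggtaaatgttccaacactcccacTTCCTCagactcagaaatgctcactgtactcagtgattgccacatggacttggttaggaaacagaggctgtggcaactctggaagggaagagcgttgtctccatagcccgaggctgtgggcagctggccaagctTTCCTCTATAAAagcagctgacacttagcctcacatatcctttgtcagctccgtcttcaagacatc
S100a9: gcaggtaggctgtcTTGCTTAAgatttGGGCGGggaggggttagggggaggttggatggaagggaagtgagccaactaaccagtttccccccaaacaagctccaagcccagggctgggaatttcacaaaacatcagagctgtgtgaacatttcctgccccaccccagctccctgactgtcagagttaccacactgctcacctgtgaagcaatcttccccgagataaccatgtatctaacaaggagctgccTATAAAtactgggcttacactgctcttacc
S100a4: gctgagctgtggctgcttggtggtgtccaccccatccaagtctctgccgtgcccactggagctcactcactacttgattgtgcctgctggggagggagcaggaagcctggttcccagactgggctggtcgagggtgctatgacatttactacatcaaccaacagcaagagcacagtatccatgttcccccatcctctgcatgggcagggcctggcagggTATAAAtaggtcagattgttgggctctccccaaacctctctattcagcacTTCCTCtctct
S100b: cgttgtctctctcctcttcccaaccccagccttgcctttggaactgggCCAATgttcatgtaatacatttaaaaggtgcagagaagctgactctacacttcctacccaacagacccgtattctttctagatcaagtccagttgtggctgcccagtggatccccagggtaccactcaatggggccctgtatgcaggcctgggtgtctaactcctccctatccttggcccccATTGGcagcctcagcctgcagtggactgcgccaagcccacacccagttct

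The letters TATAAA were found in 3 of the 10 windows, against 13.1% of the 32851 windows in the RefSeq table. These were S100a8, with the match beginning at -30 from the annotated start, S100a4 at -31, and S100a9, where it began at the annotated start itself. The PU.1 core was found in 4 windows (26.0% of all windows), with 2 matches in S100a8, at -170 and at -36, the latter directly before the promoter box. The C/EBP core was found in S100a9 alone, at -236 (10.4% of all windows), CCAAT in S100b and S100a6 (36.1%), and GGGCGG in 3 windows (34.7%), 3 times in S100a11. The windows of S100a1 and S100a13 overlap by 164 bases and held none of these letters. A match describes the sequence and is not a measured binding site.

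Library totals ran from 6377013 to 33880743 counts. The summed RPKM (read counts divided by transcript length and by sequencing depth) of 10 endothelial genes was 2384 to 3459 in ECs and at most 35.9 elsewhere, and that of 10 stromal genes was 29193 to 33764 in MSCs against 3682 to 6374 in ECs. Of the 8 Schwann and glial markers that could accompany S100b, 7 were in the table, and their sum did not exceed 5.94 RPKM in MSCs, while 8 cartilage and bone genes summed to 592 to 3917 RPKM there. Leukocyte transcripts stood out in some sorted stromal libraries. The sum of 10 pan-leukocyte genes had a median of 48.4 RPKM in ECs and 8.53 in MSCs but reached 532.53 in Flt3-ITD EC replicate 2 and 253 in Flt3-ITD MSC replicate 5, against 6178 to 8846 in MNCs. It was also 243 RPKM in Flt3-ITD EC replicate 3, where the neutrophil genes described below stayed at 34.1 RPKM. The first 2 of these libraries bear on S100a8 and S100a9 below.

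The plot of RPKM by library shows 3 broad patterns. S100a8 and S100a9 were myeloid genes, far above all other members in MNCs. S100a4 and S100b were highest in MSCs by a wide margin. The other 6 members were present in both stromal populations and, apart from S100a11, averaged lower in MNCs.

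**Figure D1:**
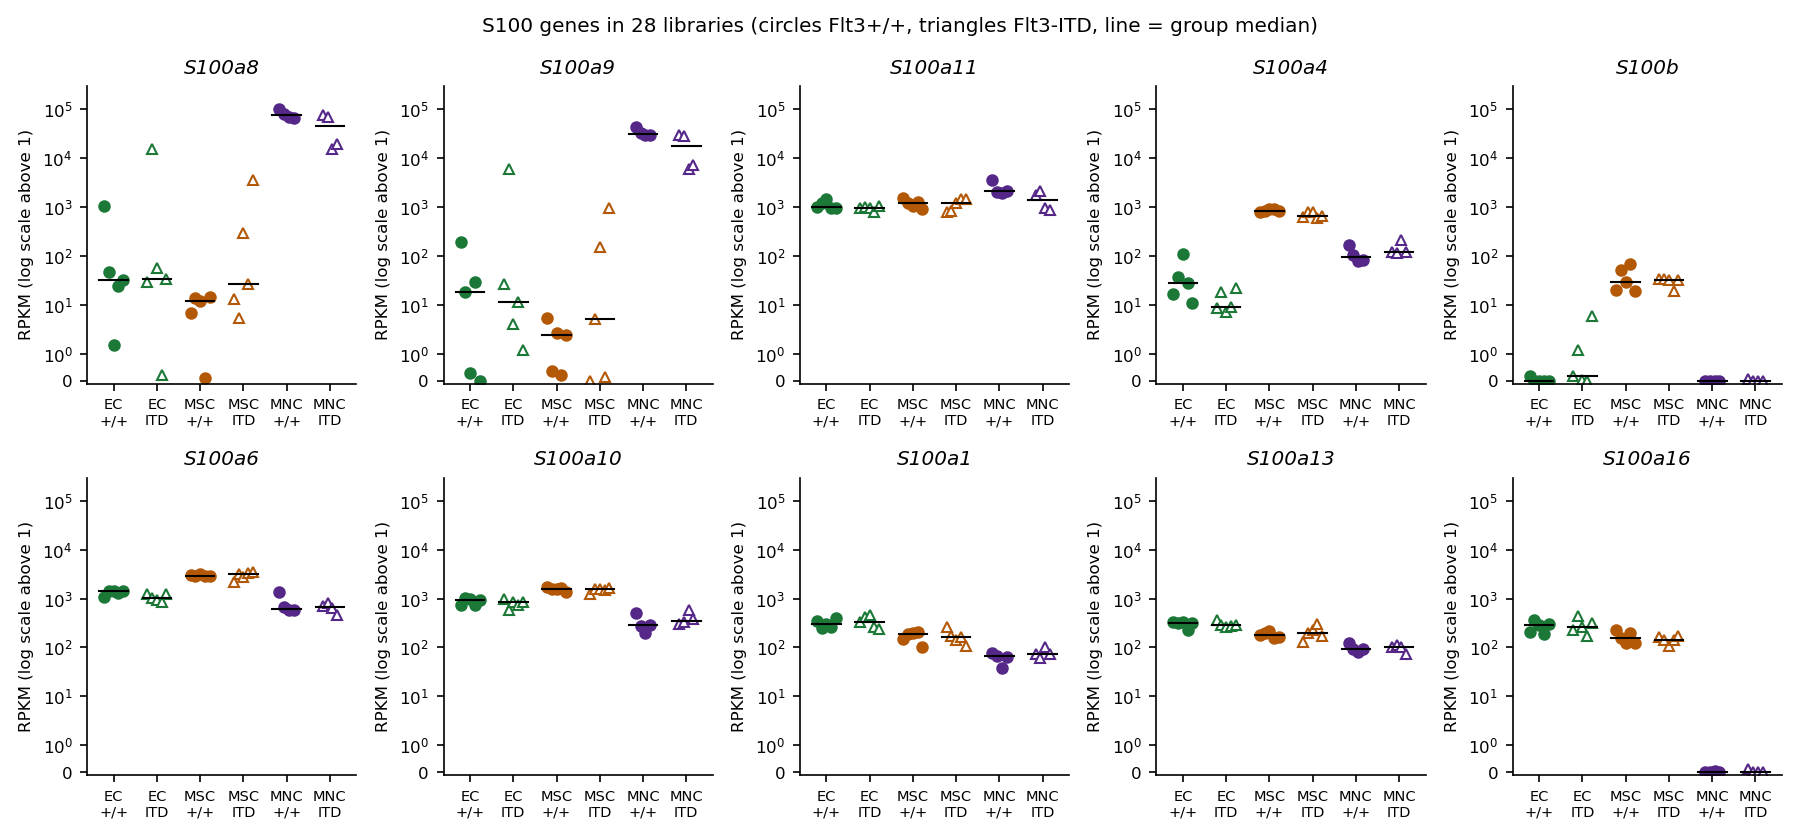
RPKM of each S100 gene (log scale above 1, linear below) in the 28 libraries by population and genotype, with circles for Flt3+/+, triangles for Flt3-ITD and a line at each group's median. S100a8 and S100a9 in MNCs lie above every EC and MSC library, S100b is highest in MSCs, and S100a16 is at or near 0 in MNCs.

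A gene was called when edgeR's quasi-likelihood test gave a Benjamini-Hochberg adjusted p under 0.1 and the log2 ratio of mean RPKM was at least 1 in size. Between ECs and MSCs 5 of the 10 members were called, against 32.9% of the 16897 genes tested. Higher in ECs were 2 of them, S100a8 and S100a9 (16.3% of genes), and higher in MSCs were 3, S100a4, S100a6 and S100b (16.6%). Between ECs and MNCs 8 of 10 were called against 45% of genes, with 5 higher in ECs (23.1%) and 3 higher in MNCs (22%). The 5 include S100b, which was at 0 in 5 of 10 EC and 7 of 8 MNC libraries. S100b passed the filter on low counts through MSCs, and this call was lost among Flt3+/+ libraries alone. Between MSCs and MNCs 8 of 10 were called against 44.3%, with 6 higher in MSCs (22.2%) and 2 higher in MNCs (22%). The family median log2 fold change was -0.02, 0.87 and 1.80 in these comparisons, and the median over all genes tested was -0.01, 0.00 and -0.02. Read without overlap, the EC and MSC libraries were separated for 4 members (9.63% of genes with a mean of at least 1 RPKM), EC and MNC libraries for 5 (20.4%), and MSC and MNC libraries for 8 (24.5%).

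**Figure D2:**
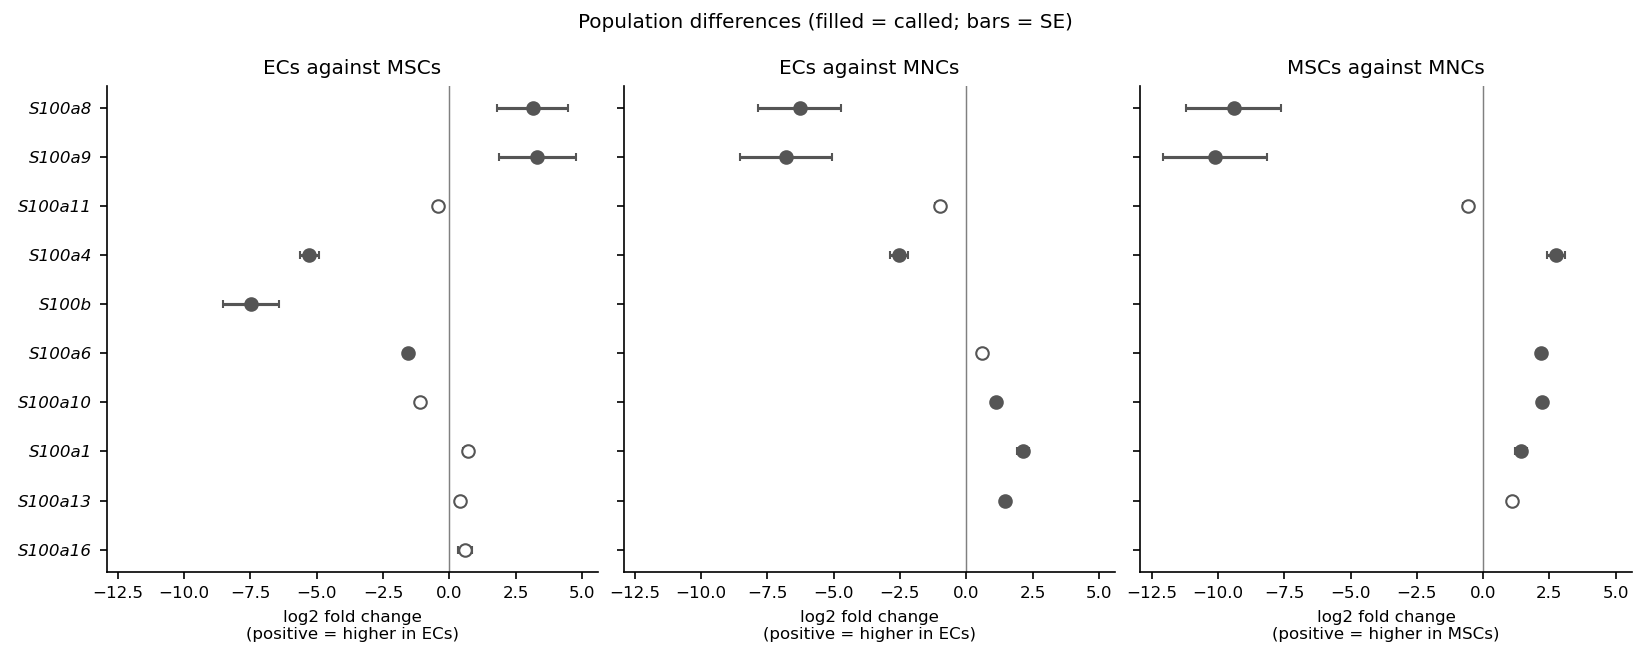
log2 fold changes (points) with standard errors (bars) of the S100 genes for each pair of populations, positive where the first named is higher. Filled points were called, and S100a16 and S100b are left out of both comparisons with MNCs, where they were near 0 counts. S100a8 and S100a9 point to MNCs, while S100a4 points to MSCs from both sides.

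S100a8 and S100a9 were the most abundant members by far in MNCs. S100a8 was at 99275, 80339, 71242 and 66361 RPKM in the 4 Flt3+/+ MNC libraries and at 76927, 70908, 15195 and 19292 in the 4 Flt3-ITD libraries. S100a9 was at 42694, 32525, 30073 and 30275 RPKM in Flt3+/+ MNCs and at 30008, 28971, 6092 and 7217 in Flt3-ITD MNCs. All 8 MNC libraries held more of both genes than any EC or MSC library, although Flt3-ITD MNC replicate 3 came close to 1 EC library described below.

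The pair made up 3.99% to 5.82% of all counts in the Flt3+/+ MNC libraries and 0.866% to 4.35% in the Flt3-ITD ones. The other 8 members together made up 0.111% to 0.318% of MNC counts, 0.199% to 0.308% of EC counts and 0.345% to 0.486% of MSC counts. Without S100a8 and S100a9, therefore, MSC libraries carried the largest share of S100 transcripts, and none overlapped with an EC or MNC library.

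**Figure D3:**
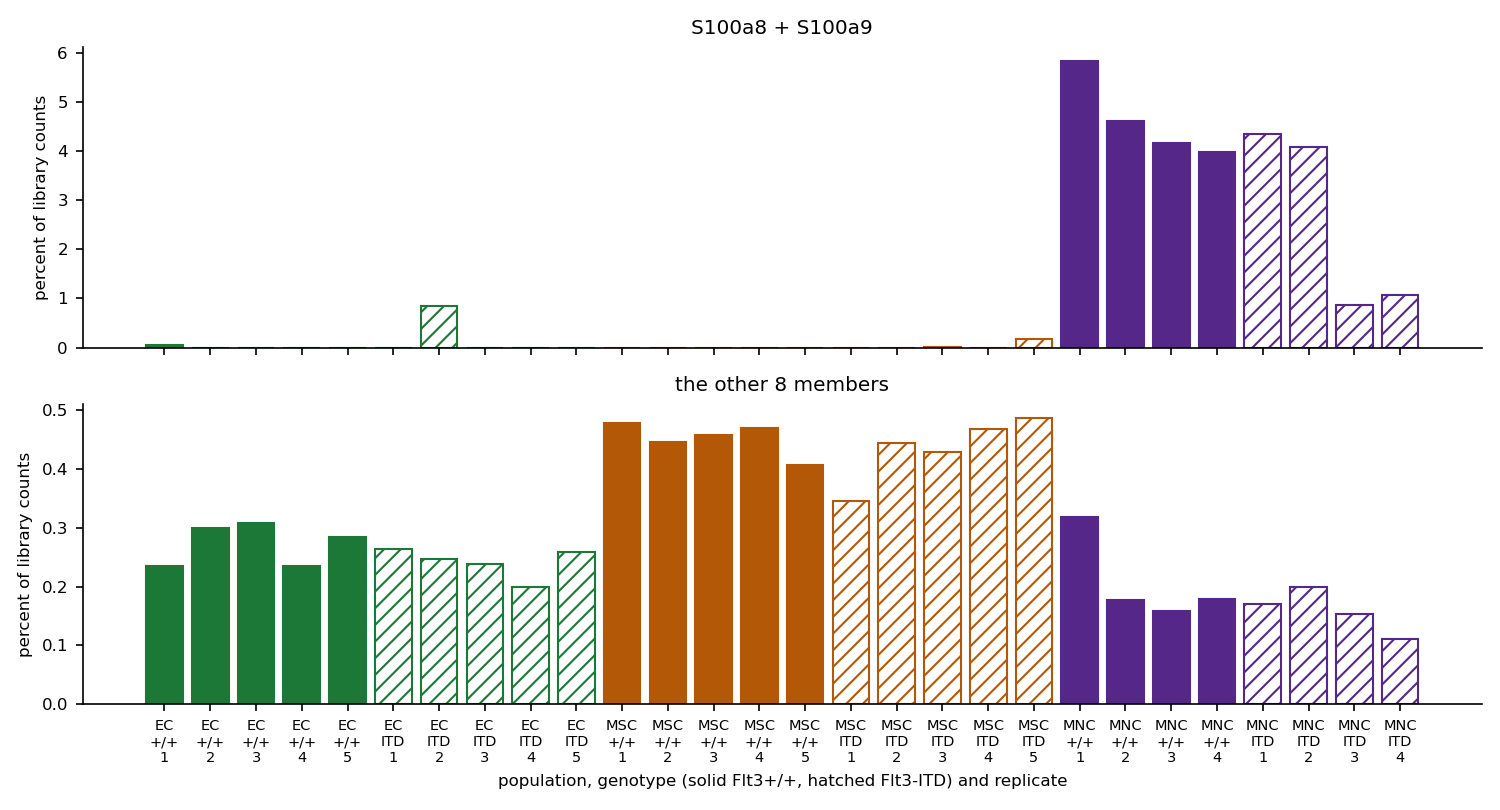
Percent of each library's counts that S100a8 and S100a9 took together (top) and that the other 8 members took together (bottom), with solid bars for Flt3+/+ and hatched bars for Flt3-ITD. The pair reached 5.82% in MNCs and 0.857% in Flt3-ITD EC replicate 2, and the other members were highest in MSCs, at 0.345% to 0.486%.

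The 2 genes kept a steady ratio in MNCs. S100a8 divided by S100a9, both in RPKM, was 2.19 to 2.67 over the 8 MNC libraries (mean 2.44 ± 0.148, SD). The ratio was 2.49 in Flt3-ITD MNC replicate 3 and 2.67, the highest of the 8, in replicate 4, the 2 libraries with the least of both genes. Across all 28 libraries the log2(RPKM + 1) values of the pair had a Pearson r of 0.96, which describes mostly the step between MNCs and the sorted populations.

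In ECs, S100a8 was at 1047, 47.8, 1.52, 24.7 and 32.6 RPKM in Flt3+/+ libraries and at 28.9, 15138, 56.8, 0.23 and 34.2 in Flt3-ITD libraries. S100a9 was at 193, 18.6, 0.27, 28.9 and 0 RPKM in Flt3+/+ ECs and at 26.1, 5994, 3.97, 11.3 and 1.20 in Flt3-ITD ECs. A single library of each genotype was high, and the other 8 held at most 56.8 RPKM of S100a8. In MSCs, S100a8 was at 6.94, 13.98, 12.01, 0.09 and 14.49 RPKM in Flt3+/+ libraries and at 13.04, 5.46, 295, 27.2 and 3585 in Flt3-ITD libraries. S100a9 was at 5.26, 0.35, 2.68, 0.20 and 2.42 RPKM in Flt3+/+ MSCs and at 0, 5.14, 152, 0.15 and 963 in Flt3-ITD MSCs. Here only Flt3-ITD replicates 3 and 5 rose above 30 RPKM.

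Other leukocyte genes were read in these same libraries. In Flt3-ITD EC replicate 2 the neutrophil granule gene Ngp was at 5045 RPKM and the 12 neutrophil genes summed to 9110 RPKM, against at most 102 in the other 9 EC libraries, and its ratio of S100a8 to S100a9 was 2.53. In Flt3-ITD MSC replicate 5 Ngp was at 1119 RPKM, the neutrophil sum was 1799 RPKM and the ratio was 3.72. In Flt3+/+ EC replicate 1, by contrast, S100a8 reached 1047 RPKM with Ngp at 2.26 RPKM and no count of Ptprc (CD45). The neutrophil sum there was 102 RPKM, of which the granule gene Camp made 53.4 RPKM. In Flt3-ITD MSC replicate 3 S100a8 was at 295 RPKM with a neutrophil sum of 87.7 RPKM, Camp at 0 RPKM and no count of Ptprc. Over the 10 libraries of each stromal population the neutrophil sum ran from 0.300 to 9110 RPKM in ECs and from 0.870 to 1799 in MSCs, and from 23309 to 78361 in MNCs. The share of S100a8 in ECs and MSCs that came from other cells was not tested.

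**Figure D4:**
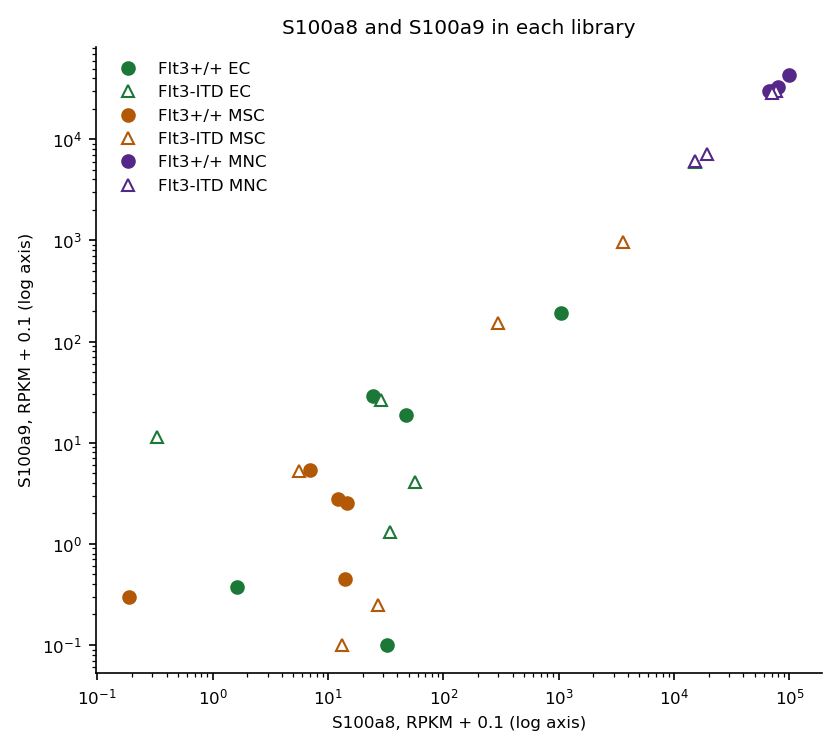
S100a9 against S100a8 in each library (RPKM + 0.1, both axes logarithmic), coloured by population, with circles for Flt3+/+ and open triangles for Flt3-ITD. MNC libraries lie along one line at a ratio of 2.19 to 2.67, the Flt3-ITD EC library at 15138 RPKM of S100a8 falls on the lowest MNC points, and stromal libraries below 100 RPKM scatter.

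Against MNCs, the log2 fold change of S100a8 was -6.27 in ECs (SE 1.57, edgeR adjusted p = 0.00194) and -9.41 in MSCs (SE 1.79, adjusted p = 0.000108). For S100a9 the log2 fold changes were -6.80 (SE 1.72, edgeR adjusted p = 0.00216) and -10.11 (SE 1.97, adjusted p = 0.000145). The Flt3-ITD EC and MSC libraries with neutrophil genes at high levels carry much of the stromal means. Without both of them the differences were larger, -9.64 and -10.96 for S100a8 and -10.27 and -11.33 for S100a9, and all 4 were called. Among Flt3+/+ libraries alone the S100a8 differences were larger, at -8.61 and -12.99, and were called. Among Flt3-ITD libraries alone they were -3.75 (edgeR adjusted p = 0.254) and -5.70 (adjusted p = 0.115), and the call was lost, as for S100a9. These Flt3-ITD values include both of those libraries.

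Both genes were also called higher in ECs than in MSCs, S100a8 by a log2 fold change of 3.14 (SE 1.34, edgeR adjusted p = 0.0747) and S100a9 by 3.31 (SE 1.46, adjusted p = 0.0842). Without Flt3-ITD EC replicate 2 these values were -0.23 (edgeR adjusted p = 0.916) for S100a8 and -0.16 (adjusted p = 0.959) for S100a9. Without that library and Flt3-ITD MSC replicate 5, the stromal libraries with the highest neutrophil sums, they were 1.32 and 1.06, not called. Flt3-ITD EC replicate 3, with a pan-leukocyte sum of 243 RPKM, was kept in that fit. Leaving out Flt3+/+ EC replicate 1 also ended both calls, with 1.61 for S100a8 and 2.31 for S100a9. The calls were close to the threshold, since leaving out any one of Flt3+/+ MSC replicates 1 and 4 or Flt3-ITD MSC replicates 1 to 4 put the adjusted p of S100a8 at 0.101 to 0.1097, and any one of Flt3+/+ MSC replicates 2 to 5 or Flt3-ITD MSC replicates 2 to 4 put that of S100a9 at 0.105 to 0.125. The EC and MSC ranges overlapped throughout.

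S100a11, the partner of annexin A1, was high in every population. Its lowest, median and highest RPKM were 810, 982 and 1456 in ECs, 789.91, 1204 and 1505 in MSCs, and 852, 1972 and 3555 in MNCs. The 3 ranges overlapped. MNCs were higher than ECs by a log2 value of 0.99 (log2 fold change -0.99, SE 0.19, edgeR adjusted p = 0.000109) and higher than MSCs (-0.58, SE 0.19, adjusted p = 0.0133), but the RPKM ratio stayed under the limit for a call. Among Flt3+/+ libraries alone both differences were called, at -1.26 and -0.99, while among Flt3-ITD libraries alone S100a11 was at -0.56 and -0.08.

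S100a4, the fibroblast member, separated MSCs from both other populations. It was at 808, 843, 917, 901 and 829 RPKM in Flt3+/+ MSCs and at 628, 778, 779, 585 and 660 in Flt3-ITD MSCs. MNCs held 165, 106, 78.6 and 82.0 RPKM (Flt3+/+) and 118, 115, 211 and 121 (Flt3-ITD). ECs held 17.0, 37.5, 108, 27.6 and 10.8 RPKM (Flt3+/+) and 8.69, 18.5, 7.12, 9.11 and 21.7 (Flt3-ITD). The MSC libraries overlapped with none of the others, and EC and MNC libraries overlapped through 1 EC library, at 108 RPKM. The log2 fold change of ECs against MSCs was -5.28 (SE 0.36, edgeR adjusted p = 1.93e-11), a 38.9-fold difference. MSCs exceeded MNCs 6.75-fold (log2 fold change 2.75, SE 0.35, adjusted p = 4.70e-07) and MNCs exceeded ECs 5.77-fold (-2.53 for ECs, SE 0.33, adjusted p = 7.19e-07).

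S100b, the glial and cartilage member, was detected in all 10 MSC libraries, at 19.7, 52.2, 28.9, 67.2 and 18.8 RPKM in Flt3+/+ and 34.5, 33.8, 31.6, 19.4 and 32.1 in Flt3-ITD. In ECs it was at 0 in 5 of 10 libraries and reached 6.02 RPKM (264 counts) in Flt3-ITD replicate 5. In MNCs it was at 0 in 7 of 8 libraries, with 2 counts in the remaining one. No EC or MNC library reached the lowest MSC value. The log2 fold change of ECs against MSCs was -7.48 (SE 1.05, edgeR adjusted p = 7.62e-06). Taking 3 counts as the limit in each MNC library, the MSC mean of 33.8 RPKM was at least 269-fold higher than the highest such limit. S100b was also called higher in ECs than in MNCs (edgeR adjusted p = 0.00955), but this call was lost among Flt3+/+ libraries alone (adjusted p = 0.203) and without Flt3+/+ EC replicate 1, and it rests on the few EC libraries above 0.

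S100a6 and S100a10 were the most abundant members in MSCs. S100a6, which binds calcyclin-binding protein, had a lowest, median and highest value of 2152, 2987 and 3429 RPKM in MSCs, of 870.01, 1230 and 1460 in ECs, and of 451, 660 and 1339 in MNCs. MSCs lay above both other populations without overlap, and ECs and MNCs overlapped. MSCs exceeded ECs 2.95-fold (log2 fold change -1.56 for ECs, SE 0.14, edgeR adjusted p = 3.04e-09) and MNCs 4.49-fold (2.17, SE 0.16, adjusted p = 2.33e-11). ECs against MNCs gave 0.61 (SE 0.15, adjusted p = 0.00139), under the fold limit.

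S100a10, the annexin A2 partner, ran from 1263 to 1687 RPKM in MSCs (median 1566), from 582 to 1040 in ECs (median 853) and from 201 to 583 in MNCs (median 316). MSCs again overlapped with neither, and the highest MNC library passed the lowest EC library by less than 1 RPKM. MSCs exceeded MNCs 4.68-fold (log2 fold change 2.23, SE 0.16, edgeR adjusted p = 2.71e-11) and ECs exceeded MNCs 2.18-fold (1.13, SE 0.15, adjusted p = 1.51e-06). The log2 fold change of ECs against MSCs was -1.10 (SE 0.14, edgeR adjusted p = 1.31e-06), while the log2 RPKM ratio was -0.86, so this difference was not called.

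S100a1, S100a13 and S100a16 ran the other way, with ECs highest, MSCs next and MNCs lowest by their means. S100a1 averaged 328 ± 77.8 RPKM (SD, n = 10) in ECs, 169.8 ± 48.5 (n = 10) in MSCs and 69.3 ± 18.5 (n = 8) in MNCs. Only the EC and MNC libraries were apart, and ECs exceeded MNCs 4.39-fold (log2 fold change 2.13, SE 0.22, edgeR adjusted p = 1.68e-08). S100a13 averaged 299 ± 40.4 RPKM in ECs, 194 ± 46.4 in MSCs and only 98.1 ± 16.3 in MNCs, so that both stromal populations were apart from MNCs. ECs exceeded MNCs 2.79-fold (1.48, SE 0.17, adjusted p = 9.82e-08) and MSCs exceeded them 2.14-fold (1.09, SE 0.17, adjusted p = 6.66e-06), the latter with a log2 RPKM ratio of 0.98, just under the limit, so that leaving out any one of 6 libraries made it a call. Between ECs and MSCs neither gene was called, with log2 fold changes of 0.71 (SE 0.19, adjusted p = 0.00586) for S100a1 and 0.39 (SE 0.15, adjusted p = 0.0559) for S100a13.

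S100a16 was the member most sharply absent from MNCs. It averaged 275 ± 81.3 RPKM in ECs and 156 ± 36.97 in MSCs, whose ranges overlapped (log2 fold change 0.59, SE 0.28, edgeR adjusted p = 0.101). In MNCs it had no count in 6 of 8 libraries and at most 2 counts in the others. Against 3 counts in each MNC library, ECs were at least 1351-fold higher and MSCs at least 768-fold higher. Of the members on either side of it, S100a13 was at 74.0 to 124 RPKM and S100a4 at 78.6 to 211 RPKM in the 8 MNC libraries.

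No member was called between genotypes in any population by edgeR's quasi-likelihood test. In ECs 0 of the 9 members tested were called (0.0081% of 12351 genes), with 1 at an unadjusted p under 0.05, and no member's genotypes were apart (1.14% of genes). In MSCs 0 of 10 were called (0.0295% of 13574 genes), with 2 at that level, and in MNCs 0 of 8 (0.0144% of 13926 genes), with 1. DESeq2 called 0, 1 and 0 members, and 108, 61 and 265 of all these genes. In all 3 populations few genes passed the edgeR test, and the share of genes with an unadjusted p under 0.05 was 4.99%, 4.24% and 10.4%. A missed threshold does not show that levels were equal. The members' median log2 fold change, with that of all genes tested in brackets, was -0.02 (-0.01) for ECs, 0.03 (0.03) for MSCs and -0.32 (-0.01) for MNCs. As a second reading, an exact two-sided permutation test of mean RPKM was run for 10 members in 3 populations, 30 tests in all, and 3 gave p under 0.05, which is unadjusted.

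**Figure D5:**
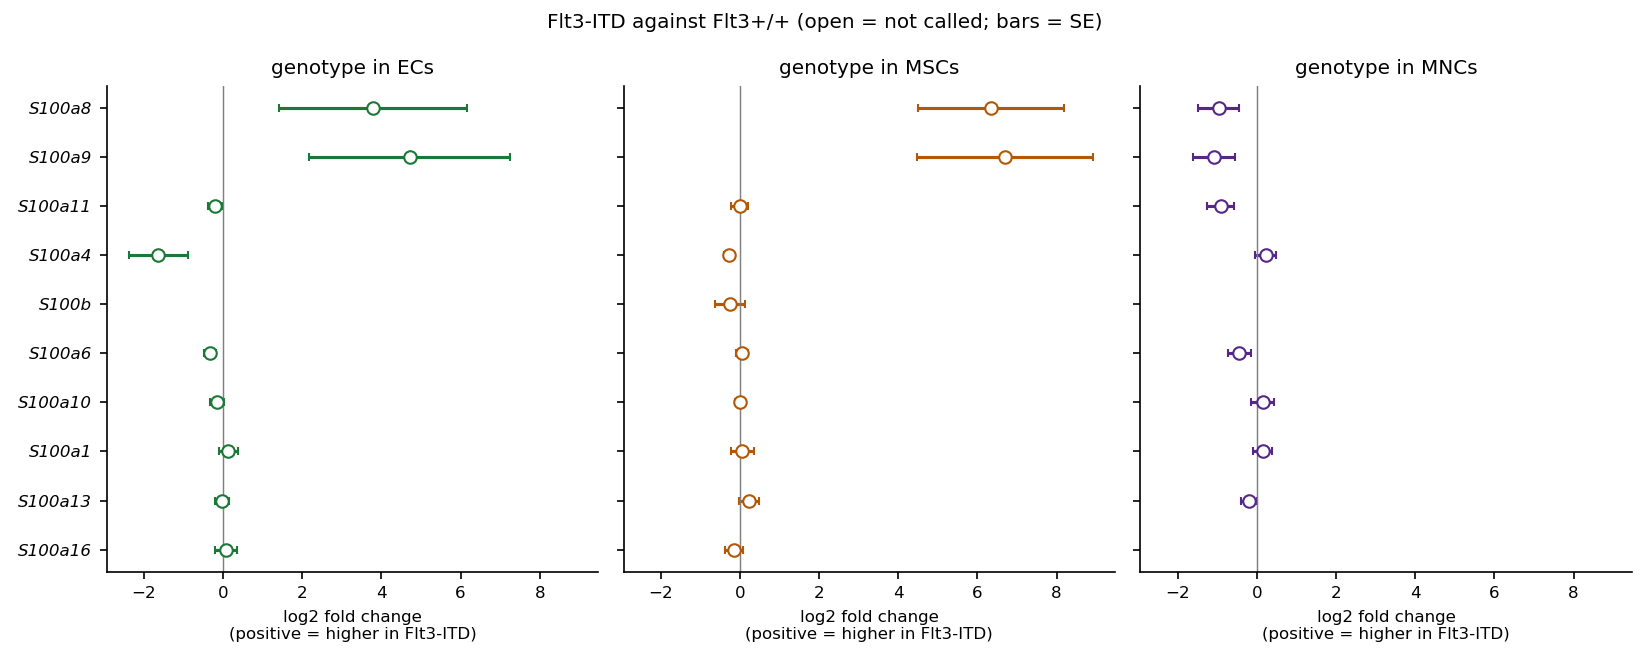
log2 fold changes (points) with standard errors (bars) of Flt3-ITD against Flt3+/+ for each S100 gene, positive where Flt3-ITD is higher. Open points were not called, which is all of them, and members removed by the filter on low counts are left out. S100a8 and S100a9 have the widest bars in ECs (3.78 and 4.72) and MSCs (6.34 and 6.70) and lie below 0 in MNCs.

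In ECs the largest fitted differences were in the myeloid pair, S100a8 at a log2 fold change of 3.78 (SE 2.37) and S100a9 at 4.72 (SE 2.53), with edgeR adjusted p = 0.9998 for both. Both turned to negative values, -2.93 for S100a8 and -2.16 for S100a9, without Flt3-ITD EC replicate 2, and to -4.37 and -2.78 when the pan-leukocyte level of each library was a covariate. Among the stromal members S100a6 was lower in Flt3-ITD ECs, 1058 ± 166 RPKM against 1337 ± 172 in Flt3+/+ (SD, n = 5, exact permutation p = 0.0317). The 2 genotypes overlapped, since the Flt3+/+ libraries were at 1054, 1437, 1444, 1291 and 1460 RPKM and the Flt3-ITD libraries at 1229, 1016, 942, 870.01 and 1230. The edgeR log2 fold change of S100a6 was -0.33 (SE 0.15, adjusted p = 0.990). S100a4 was at -1.63 (SE 0.74, edgeR adjusted p = 0.998), a value that fell to -0.79 without Flt3+/+ EC replicate 3, the library at 108 RPKM. S100b was removed by the filter in ECs, where it had 4 counts in 1 of 5 Flt3+/+ libraries and up to 264 counts in Flt3-ITD ones. The other 5 members, S100a1, S100a10, S100a11, S100a13 and S100a16, lay between -0.21 and 0.14.

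In MSCs S100a4 was the one member whose genotypes did not overlap, a separation seen in 0.888% of genes. Every Flt3+/+ library, at 808 to 917 RPKM, was above every Flt3-ITD library, at 585 to 779, with means of 859.9 ± 47.2 and 686 ± 88.5 (SD, n = 5, a ratio of 1.25, exact permutation p = 0.00794, the smallest that 5 against 5 can give). The edgeR log2 fold change was -0.27 (SE 0.14, adjusted p = 0.999), not called and below the fold limit. RPKM are scaled by library total, which moved genotype differences in MSCs by -0.06 in log2 relative to edgeR's scaling. Whether the libraries stayed apart under edgeR's scaling was not tested.

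S100a8 and S100a9 were fitted higher in Flt3-ITD MSCs, at 6.34 (SE 1.85) and 6.70 (SE 2.22), both with edgeR adjusted p = 0.999 and without replicate 5 at 3.21 and 4.198. The exact permutation p was 0.103 for S100a8 and 0.302 for S100a9. DESeq2 called S100a9 (adjusted p = 0.0849) and gave no adjusted p for S100a8. The other 7 members lay between -0.25 and 0.23. Among them S100b averaged 37.4 ± 21.4 RPKM in Flt3+/+ and 30.3 ± 6.20 in Flt3-ITD MSCs (exact permutation p = 0.492).

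In MNCs the 2 myeloid members and S100a11 were lower on average in Flt3-ITD libraries. S100a9 averaged 33892 ± 5973 RPKM in Flt3+/+ and 18072 ± 13198 in Flt3-ITD (SD, n = 4). Its genotypes did not overlap, a separation seen in 7.06% of genes, by a margin of 30073 against 30008 RPKM, and the exact permutation p was 0.0286, the smallest that 4 against 4 can give. S100a8 averaged 79304 ± 14519 and 45580 ± 32855 RPKM (exact permutation p = 0.171), and S100a11 2416 ± 765 and 1449 ± 640 RPKM (p = 0.143). By edgeR the log2 fold changes were -0.96 (SE 0.52, adjusted p = 0.529) for S100a8, -1.08 (SE 0.53, adjusted p = 0.508) for S100a9 and -0.91 (SE 0.35, adjusted p = 0.429) for S100a11.

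The Flt3-ITD MNC libraries fell into 2 levels for these 3 genes. Replicates 3 and 4 held S100a8 at 15195 and 19292 RPKM, S100a9 at 6092 and 7217 and S100a11 at 973 and 852, while the other 6 MNC libraries, Flt3-ITD replicates 1 and 2 among them, held at least 66361, 28971 and 1799 RPKM. The 12 neutrophil genes, all detected in every MNC library, summed to 23309 and 34461 RPKM in these replicates and to 63158 to 78361 in the other 6. Of these 12 genes, 8 lay below the other 6 libraries, 1 lay above and 3 overlapped. The share of all genes that lay apart in this way was not counted. The split was made after the values were seen, so 8 of 12 has no background here. Retnlg, which encodes a secreted protein of neutrophils, was at 138 to 335 RPKM against 3506 to 11144. The early granule gene Mpo was the 1 above, at 2120 and 2188 RPKM against 300 to 1516. The 3 that overlapped were Fcnb, Elane (1461 to 1578 against 149 to 2006 RPKM) and Prtn3 (266 to 356 against 61.0 to 373 RPKM). The 10 pan-leukocyte genes summed to 8027 RPKM in replicate 3 and to 6178 RPKM, the lowest of the 8 MNC libraries, in replicate 4, against 6619 to 8846 in the other 6. Without these 2 replicates, a comparison added after their values were seen, the log2 fold changes were -0.25 for S100a8, -0.35 for S100a9 and -0.43 for S100a11, with edgeR adjusted p of 0.860, 0.841 and 0.860. The part that neutrophil content had in these differences was not tested.

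The stromal members varied less with genotype in MNCs. S100a4 averaged 108 ± 40.1 RPKM in Flt3+/+ and 141 ± 46.7 in Flt3-ITD MNCs (SD, n = 4), S100a10 319 ± 128.9 and 398 ± 127, S100a6 792 ± 367 and 649 ± 147, S100a1 61.5 ± 17.1 and 77.1 ± 18.6, and S100a13 98.3 ± 18.1 and 97.8 ± 17.0. Each pair of means differed by less than the larger SD, and the 5 edgeR log2 fold changes lay between -0.45 and 0.22. S100a16 and S100b were removed by the filter on low counts.

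Whether the genotype difference itself differed between populations was tested as an interaction. No member was called in ECs against MSCs (0.379% of 16897 genes), ECs against MNCs (0.0118%) or MSCs against MNCs (0.00592%). An unadjusted p under 0.05 was found for 2, 1 and 3 members, against 10.6%, 8.23% and 5.94% of all genes. The smallest was S100b in ECs against MSCs, with a log2 difference of 5.75 (SE 1.77, edgeR adjusted p = 0.174), which rests on EC libraries at or near 0. DESeq2 called it, as well as S100a8 in MSCs against MNCs, and none in ECs against MNCs. Over all genes DESeq2 called 926 in ECs against MSCs, 484 in ECs against MNCs and 365 in MSCs against MNCs.

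Proteins that S100 members bind, or through which they signal, were counted from a list of 18 genes. None was called between genotypes in any population, among 14 tested in ECs and 15 in each of the others. Between populations 16 were tested. Between ECs and MSCs 1 was called higher in ECs and 4 higher in MSCs (32.9% of all genes were called), and the comparisons of ECs and of MSCs with MNCs gave 4 in each direction (45% and 44.3% of all genes), so these counts stayed near the background. Anxa1, which encodes the S100A11 partner, averaged 280 ± 99.6 RPKM in ECs, 2554 ± 545 in MSCs and 2704 ± 977 in MNCs, with a log2 fold change of -3.43 for ECs against MSCs (SE 0.24, edgeR adjusted p = 2.04e-11). Anxa2, the S100A10 partner, passed the adjusted p but missed the fold limit between each pair of populations, at 619 ± 113, 1224 ± 202 and 723 ± 169 RPKM. Myh9, which encodes the non-muscle myosin that S100A4 binds, was highest in ECs, where S100a4 was lowest, at 207 ± 34.3 RPKM against 29.97 ± 5.52 in MSCs (log2 fold change 2.59, SE 0.12, adjusted p = 2.90e-14).

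Of the receptors of S100A8 and S100A9 in the list, Bsg, which encodes CD147, was the highest in the stromal populations, at 177 ± 62.7 RPKM in ECs, 131 ± 26.1 in MSCs and 89.5 ± 38.01 in MNCs. Tlr4 averaged 7.97 ± 6.92 RPKM in ECs, 16.2 ± 5.67 in MSCs and 7.14 ± 2.66 in MNCs, with no call between populations. Ager, which encodes RAGE, averaged 0.425, 0.127 and 1.07 RPKM. Tlr4 falls outside the rule for named genes and was named after its values were seen. Cd33 was a transcript of MNCs, at 53.9 ± 21.7 RPKM against 1.10 ± 0.227 in ECs and 0.567 ± 0.508 in MSCs. Fgf1, whose product S100A13 helps to export, averaged 0.814 RPKM in ECs, 3.88 in MSCs and 0.0375 in MNCs. Vim, an intermediate filament gene, was at 612 ± 195, 1182 ± 219 and 255 ± 96.6 RPKM.

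Genes with the most similar pattern to each member over the 28 libraries were named by Pearson r of log2(RPKM + 1) among 13727 genes, with no test, since libraries of a population share most of the pattern. S100a8 and S100a9 had the same first neighbour, 1100001G20Rik (r = 0.96 for each), and S100a8 also had the neutrophil granule gene Camp (0.96). S100a4 was nearest to Serpinf1 and Dse (both 0.95), S100a6 to Timp2 (0.96) and Prg4 (0.94), and S100b to Adamts2 and Zfp385b (both 0.99), all of which were highest in MSCs. S100a10 was nearest to Crip1 and Dpysl2 (both 0.96), S100a16 to Nfib and Cald1 (both 0.99), S100a13 to Limch1 (0.94) and Tjp1 (0.93), and S100a1 to Pfdn5 (0.95) and Lrrc8a (0.94). S100a11 had the least similar neighbours, BC100530 (0.87) and Mgam (0.84).

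Within the family, S100a6 and S100a10 were the closest stromal pair (r = 0.92 over the 28 libraries), followed by S100a13 and S100a16 (0.87), S100a6 and S100b (0.87) and S100a1 and S100a13 (0.87). S100a8 ran against S100a16 (-0.83) and S100a10 (-0.81). These values describe the order of populations more than variation inside one.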

How the data were processed

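RNA from sorted pools of ECs, MSCs and MNCs was amplified with the SMARTer Ultra Low kit and sequenced as single-end reads. The authors aligned the reads with Bowtie to UCSC mm10 transcripts, discarded reads without a unique position and used RSEM, and deposited whole-number estimated counts and RPKM per gene in 1 table. Discarding such reads lowers the values of genes with near-identical copies. Total counts were 6377013 to 33880743 per library. The models were tested on simulated counts with known changes.

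Counts were filtered with filterByExpr, scaled by TMM (factors 0.817 to 1.19) and tested with edgeR 4.0.16 (quasi-likelihood, Benjamini-Hochberg over all genes) in R 4.3.3. Genotype was tested within each population, and populations and interactions in 1 fit over all 28 libraries with genotypes weighted equally. SE is the log2 fold change divided by the square root of its F. A call needed an adjusted p under 0.1 and, apart from interactions, a log2 RPKM ratio of at least 1. DESeq2 1.42.0 was an alternative. Relative to TMM, scaling by library total moved log2 values by 0.24 (ECs against MSCs), 0.12 (ECs against MNCs) and -0.11 (MSCs against MNCs). For genotype the shifts were -0.01 (ECs), -0.06 (MSCs) and 0.19 (MNCs). Each shift was smaller in size than any called member's log2 fold change. Exact permutation tests and readings of overlap used RPKM, and were not repeated under TMM. Groups came from the sample titles. The study's methods give each library as a biological replicate. The paper plots each population of a mouse as 1 point, so EC, MSC and MNC libraries may share mice. Which libraries share a mouse was not given, and the fit over all 28 libraries treated them as independent. EC and MSC mice came from 2 experiments, and which library belongs to which was not given in the sources used here. The members, gene lists and rule for named genes (all members, other S100 genes and partners called or at least at 100 RPKM, the 2 nearest neighbours of each member with a mean of at least 5 RPKM) were chosen with earlier results of these data known. Motifs were searched in RefSeq windows.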

Additional observations from a re-analysis of the deposited data

Results flagged for a closer look

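Over 59 groups of libraries (the 10 members in 6 groups, less 1 at 0 throughout), 18 values stood further from their group than Dixon's 95% limit allows. That limit flags about 5% of groups when values are normally distributed and groups are independent. Here some flags rest on a few counts, and S100a8 and S100a9 flag the same libraries, so 18 cannot be set against that rate. S100a8 was high in Flt3+/+ EC replicate 1 (1047 RPKM, next 47.8), Flt3-ITD EC replicate 2 (15138, next 56.8) and Flt3-ITD MSC replicate 5 (3585, next 295), and S100a9 was high in the same 3 libraries, at 193, 5994 and 963 RPKM. These are the libraries whose leukocyte genes are given above.

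S100a6 (1339 RPKM) and S100a11 (3555 RPKM) were both high in Flt3+/+ MNC replicate 1. In that library S100a1, S100a4, S100a8, S100a9, S100a10 and S100a13 were also the highest of their group. So was, then, every member that passed the filter on low counts in MNCs. The share of all genes that were highest in that library was not counted. S100a4 was high in Flt3-ITD MNC replicate 3 (211 RPKM, next 121) and in Flt3+/+ EC replicate 3 (108 RPKM, next 37.5).

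S100a13 was low in Flt3+/+ EC replicate 4 (225 RPKM, the others at 315 to 329) and high in Flt3-ITD EC replicate 1 (369 RPKM, the others at 266 to 288), the shallowest library. S100b was low in Flt3-ITD MSC replicate 4 (19.4 RPKM, the others at 31.6 to 34.5) and high in Flt3-ITD EC replicate 5 (6.02 RPKM, 264 counts). The remaining values rest on 1 to 4 counts, with S100b at 0.17 RPKM in Flt3+/+ EC replicate 1 and 0.06 in Flt3-ITD MNC replicate 1, and S100a16 at 0.06 in Flt3+/+ MNC replicate 3 and 0.11 in Flt3-ITD MNC replicate 1.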

How the results depend on the processing

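The numbers of members called between populations were 5 (ECs against MSCs), 8 (ECs against MNCs) and 8 (MSCs against MNCs), and 0 in each genotype and interaction comparison. With the adjusted p alone ECs against MNCs and MSCs against MNCs both gave 10, and among Flt3-ITD libraries alone 6 and 7. ECs against MSCs moved by more than 1.5 times. It gave 9 with the adjusted p alone and 3 without both Flt3-ITD EC replicate 2 and Flt3-ITD MSC replicate 5. With the replicate number as a block it gave 3, and it gave 3 to 6 when 1 library at a time was left out. The calls lost were those of S100a8 and S100a9, whose log2 fold changes ran from -0.23 to 4.69 and from -0.16 to 4.53 with 1 library left out, both reversed without Flt3-ITD EC replicate 2. With the replicate block S100a8 and S100a9 had adjusted p of 0.384 and 0.484. Same-numbered Flt3+/+ and Flt3-ITD libraries of one population deviated together with r of -0.07 to 0.06. Same-numbered libraries of different populations were not compared, so whether the numbers mark shared mice was not tested. The replicate block changed no other count. Leaving out 1 library gave 7 to 8 for ECs against MNCs and 8 to 9 for MSCs against MNCs, and 0 for all genotype and interaction counts.

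DESeq2 called 1 member for genotype in MSCs (S100a9), 1 for the interaction of ECs against MSCs (S100b, adjusted p = 0.0491) and 1 for that of MSCs against MNCs (S100a8, adjusted p = 0.0738), where edgeR called 0, and the cause was not tested. RLE size factors, no filter on low counts and, for genotype, edgeR's exact test and the leukocyte covariate left all counts as they were. Of 2630 refitted log2 fold changes of members, 2492 kept their sign and call, 27 lost a call, 25 gained one, 2 reversed as given above and 84, called in neither fit, changed sign. Of the 20 neighbours, 14 were named again with a pseudocount of 0.1 and 19 without the minimum level. The limits on low counts cover counting error only, and amplification of 100 or 200 cells restricts what low counts can show.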

Other observations

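S100 genes outside the 10 members were sparse and uneven. Of 7 further symbols looked for, 5 were in the table. S100g, which encodes the vitamin D-responsive calcium carrier calbindin D9k, averaged 31.96 ± 32.1 RPKM in MSCs (0.09 to 93.4 over 10 libraries), 0.03 in ECs and 0.254 in MNCs, and was called higher in MSCs than in ECs (edgeR adjusted p = 7.88e-07) and MNCs (adjusted p = 2.21e-05). S100a5 averaged 20.7 ± 18.1 RPKM and S100a3 14.1 ± 18.9 RPKM in MSCs, both at 0 in some MSC libraries and called higher there than in ECs (edgeR adjusted p = 0.00442 and 2.82e-05). S100a7a averaged 2.01 RPKM in MSCs and was at 0 in 6 of the 10. None of the 5 was called between genotypes, where 3 passed the filter on low counts in MSCs and 0 in ECs and MNCs. In these 3 genes the spread between MSC libraries was about as large as the mean, unlike S100b, which was at 18.8 RPKM or more in all 10.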
